A study of Mus musculus with 24 samples.

Results

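The laminin chain and integrin subunit genes of the mouse were followed in 24 diabetic skin wounds, each profiled by RNA sequencing of the whole tissue. Members were taken by gene symbol, as every gene named Lam followed by a, b or c and a number, and every gene whose symbol starts with Itga or Itgb apart from Itgb1bp, Itgbl1 and Itgb3bp. These were 38 genes of the 54232 counted, of which 11 encode laminin chains (5 alpha, 3 beta and 3 gamma) and 27 encode integrin subunits (18 alpha and 9 beta). By textbook knowledge of where they act, 8 were treated as epithelial, 6 as endothelial and 9 as leukocyte members, and 15 as shared or other. A filter on low counts kept 37 of them among 18978 genes. Itgb2l, a close copy of Itgb2, did not pass, with 119 counts over all libraries.

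All mice were males of strain C57BLKS/J with the genotype Lepr (db/db), an obese and diabetic line without a working leptin receptor, wounded on the back at 16 weeks with a 6 mm full-thickness punch. Alginate bandages were put on straight after injury and renewed on day 3, and the wounds were taken on day 10, at a labelled age of 17.5 weeks. The bandages held medium conditioned by primary macrophages of type M0 (CM0, 4 wounds), M1 (CM1, 4 wounds), M2a (CMA, 5 wounds) or M2c (CMC, 5 wounds), and the control bandages (Ctrl, 6 wounds) held none of these media. The agents that polarized the macrophages, and whether control bandages held unconditioned medium, are not stated in the labels. No mice without diabetes, unwounded skin or unbandaged wounds were among the groups.

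Libraries held 7267879 to 11985292 counts, and the 38 members took 0.419 to 0.528% of them. Every marker of keratinocytes, endothelium, leukocytes and fibroblasts in the lists used (12, 12, 12 and 9 genes) passed the filter, as did 7 of 9 hair follicle markers. The mean hair follicle marker level, in log2 CPM (counts scaled to a library of 1000000), was 8.71 in Ctrl 3, which stood apart, and between -0.74 and 5.76 in the other wounds. The mean skeletal muscle marker level was highest in Ctrl 4, at 10.7, against 8.14 to 10.4 in the other wounds. The mean neutrophil marker level was highest in CM1 3, at 5.59, against 1.84 to 5.13 in the others. Leaving out these 3 wounds together was one of the alternatives tried. In whole tissue, fewer cells of a type and less RNA per cell cannot be told apart.

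Laminins are cross-shaped proteins built from an alpha, a beta and a gamma chain, and they form the sheet of basement membrane under epithelia and around vessels, nerves and muscle. Integrins are receptors built from an alpha and a beta subunit that hold cells to laminins, collagens, fibronectin and other matrix, or hold leukocytes to other cells. In skin, a laminin that holds Lama3 and Lamb3 and the integrin of Itga6 and Itgb4 meet at the hemidesmosome, which anchors the epidermis to the dermis.

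Levels were set per kilobase of annotated exon, so that genes can be roughly compared. The level was highest for Itgb1, the beta subunit shared by most matrix receptors, at 129 ± 14.8 CPM per kb. Values are the mean ± SD over all 24 wounds, here and for the other per-kilobase levels. Lamc1, the gamma chain of most laminins, followed at 76.1 ± 14.8 CPM per kb. Itgb5, a partner of Itgav in vitronectin receptors, was at 72.7 ± 7.08 CPM per kb, a spread that overlaps that of Lamc1. Itgb2, the beta subunit common to leukocyte integrins, came next at 54.6 ± 11.7 CPM per kb. The lowest tested members were Itga8 at 1.17 ± 0.362 CPM per kb and Itga10 at 0.985 ± 0.383 CPM per kb, whose ranges overlap.

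**Figure D1:**
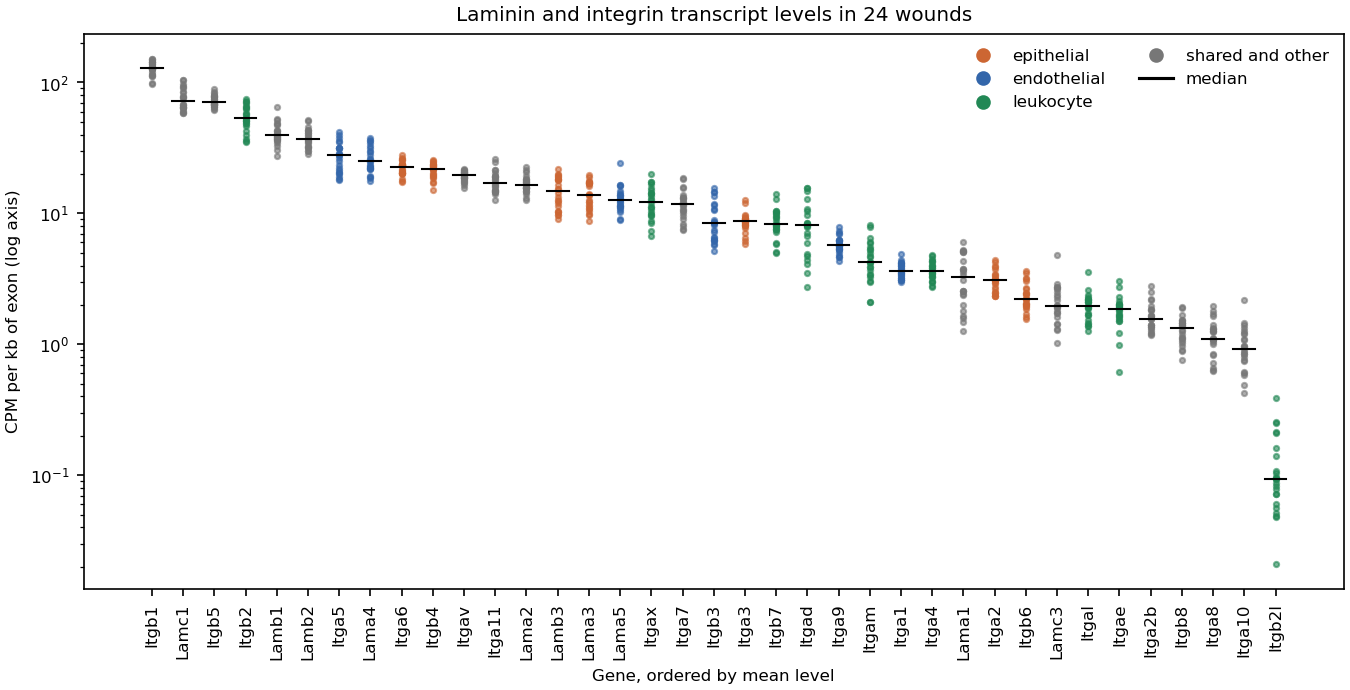
Level of 37 of the 38 genes in CPM per kb of exon on a log axis, 1 point per wound and a bar at the median, coloured by class. Itgb1 leads at a mean of 129 CPM per kb, and Itgb2l, which did not pass the count filter, is lowest at 0.121 CPM per kb.

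The makeup of each chain family was taken as shares of counts per kilobase within a wound, which do not depend on library scaling. Among alpha chains Lama4, the chain of vessel and mesenchymal basement membranes, held 35.4 ± 6.31%, Lama2 22.8 ± 2.88%, the epidermal Lama3 19.1 ± 4.22%, Lama5 18.1 ± 5.04% and Lama1 4.57 ± 2.12% (SD, n = 24). Lama5 held 34.8% in Ctrl 3, the only wound in which it outranked Lama4. Among beta chains Lamb1 held 43.8 ± 5.41%, Lamb2 40.4 ± 4.56% and the epidermal Lamb3 15.8 ± 3.84%. The share of Lamb3 ran from 9.43% in Ctrl 6 to 24.1% in CMC 3.

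**Figure D2:**
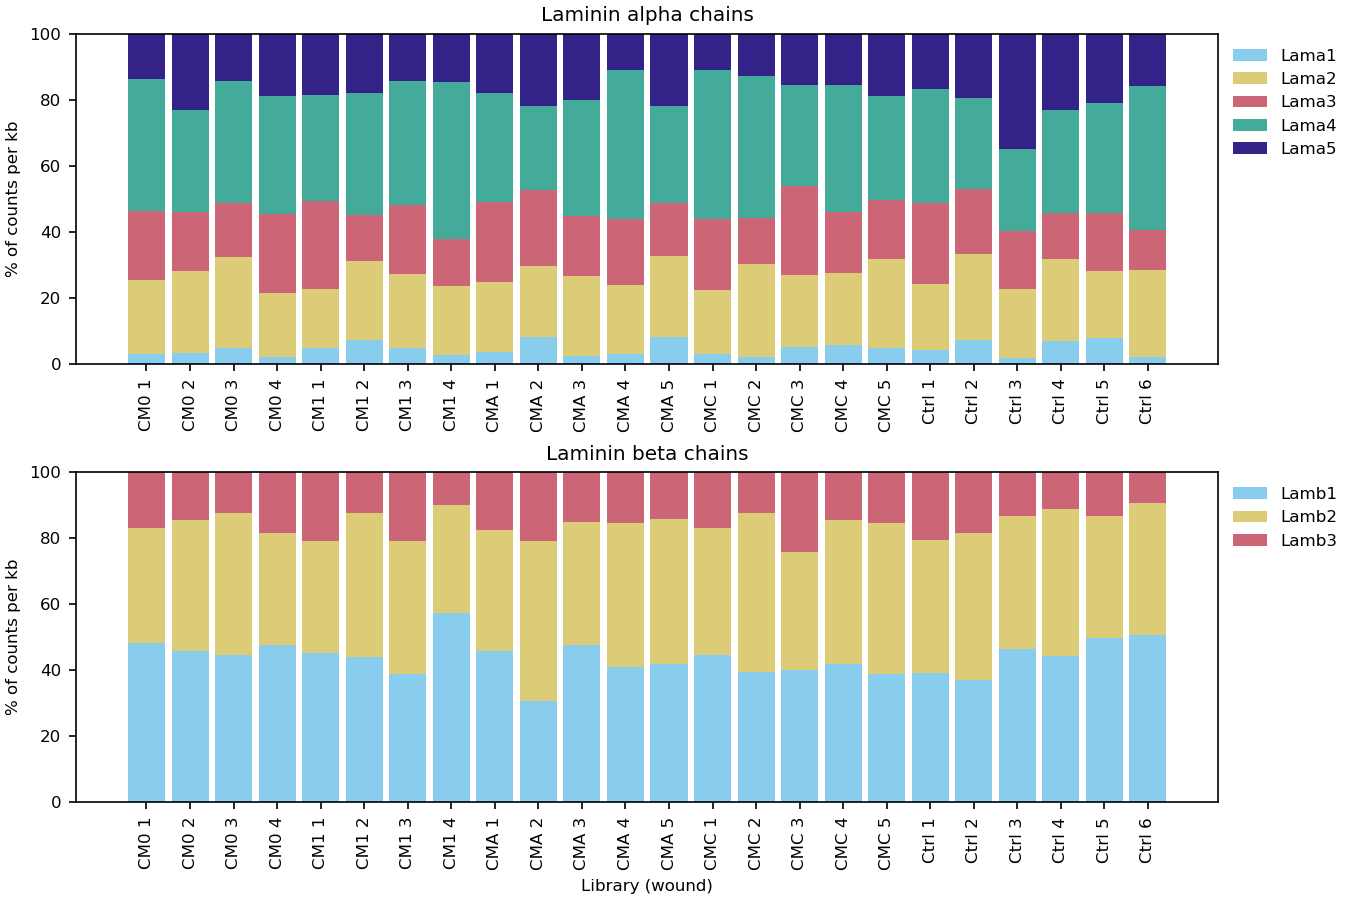
Share of each laminin alpha chain (top) and beta chain (bottom) in counts per kb, 1 bar per wound in % of the family. Lama4 is the largest alpha share in every wound but Ctrl 3, where Lama5 reaches 34.8%, and the Lamb3 share runs from 9.43% in Ctrl 6 to 24.1% in CMC 3.

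Among integrin beta subunits Itgb1 held 43.0 ± 2.20%, Itgb5 24.4 ± 2.01%, Itgb2 18.2 ± 3.04% and the hemidesmosomal Itgb4 7.26 ± 1.31%. Itgb3, Itgb7, Itgb6 and Itgb8 held means of 0.447 to 3.003%. Among alpha subunits the fibronectin receptor Itga5 held 17.6 ± 3.93%, the laminin receptor Itga6 14.3 ± 1.86%, Itgav 12.3 ± 0.850% and the fibroblast collagen receptor Itga11 11.3 ± 2.24%. The chains that pair in a protein kept nearly equal levels per kilobase in 2 cases. The log2 ratio of Lama3 to Lamb3 was -0.057 ± 0.147, and that of Itga6 to Itgb4 was 0.061 ± 0.148 (SD, n = 24). Not all pairs were so close: Itgav was at 19.3 ± 1.66 CPM per kb, against 72.7 ± 7.08 for its partner Itgb5.

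The spread between wounds was taken as the SD of log2 CPM. The median SD over the 24 wounds was 0.332 for the 37 tested members, against 0.268 for all 18978 genes. By class it was 0.303 for epithelial, 0.318 for endothelial, 0.387 for leukocyte and 0.272 for shared and other members. The ratio of the highest to the lowest wound ran from 1.40 for Itgav to 5.76 for Itgad, with a median of 2.34 for members and 2.11 for all genes.

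The epithelial members include chains of the epidermal laminin. Lamb3 (chr1:193207699-193343878 on GRCm38) encodes its beta chain. Lamb3 was at 119.8, 84.1, 79.6 and 125 CPM in the CM0 wounds and at 129.6, 68.6, 133 and 75.7 CPM in the CM1 wounds. Lamb3 had 102, 122, 81.8, 119 and 67.8 CPM in CMA wounds and 121, 88.6, 145, 93.97 and 101 CPM in CMC wounds. Lamb3 in the 6 Ctrl wounds lay between 59.4 and 128 CPM, with a median of 65.9 CPM. Of the Ctrl wounds, 4 lay at 67.5 CPM or below, under every wound given a medium, while Ctrl 1 and Ctrl 2 reached 128 and 108 CPM, so each medium overlapped Ctrl. Lama3, the alpha chain, ran from 93.3 CPM in Ctrl 6 to 212 CPM in CMC 3.

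The receptor side of the hemidesmosome spread less: the ratio of the highest to the lowest wound was 1.68 for Itgb4 and 1.61 for Itga6, against 2.45 for Lamb3 and 2.27 for Lama3. Itgb4 was at 139.5, 135, 152 and 155 CPM in the CM0 wounds and at 178, 133, 175 and 122 CPM in the CM1 wounds. Itgb4 had 151, 162, 163, 137 and 168 CPM in CMA wounds and 130.5, 120.0, 167, 152 and 159.7 CPM in CMC wounds. Itgb4 in the 6 Ctrl wounds lay between 106 and 177 CPM, with a median of 159 CPM. For Itgb4, Ctrl 6 was the lowest wound and CM1 1 the highest. Itga6 was at 180.1, 196, 216 and 213 CPM in the CM0 wounds and at 232, 185, 230.2 and 182 CPM in the CM1 wounds. Itga6 had 237, 235, 252, 183 and 216 CPM in CMA wounds and 212, 165, 213, 183 and 195 CPM in CMC wounds. Itga6 in the 6 Ctrl wounds lay between 157 and 212 CPM, with a median of 188 CPM. Itga6, its partner, was highest in CMA 3 and lowest in Ctrl 6, and 4 of 5 CMA wounds lay above every Ctrl wound. Itga3, a laminin receptor of basal keratinocytes, lay between 33.4 CPM in CMC 2 and 71.9 CPM in Ctrl 3. Itga2, a collagen receptor, lay between 16.6 and 31.2 CPM. Itgb6 was at 14.6, 22.3, 15.7 and 17.6 CPM in the CM0 wounds and at 11.5, 15.8, 14.5 and 12.1 CPM in the CM1 wounds. Itgb6 had 14.01, 23, 21.7, 16.9 and 14.3 CPM in CMA wounds and 13.8, 17.3, 14.4, 17.5 and 13.3 CPM in CMC wounds. Itgb6 in the 6 Ctrl wounds lay between 11.04 and 25.8 CPM, with a median of 19.1 CPM. Itgb6, which with Itgav activates latent TGF-beta at epithelial surfaces, was at 15.8 CPM or below in all CM1 wounds and at 18.95 CPM or above in 4 of 6 Ctrl wounds, while Ctrl 6 held the lowest value of all.

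The RefSeq promoter table on GRCm38.p6 held 24 of the 38 members. For members that varied together across wounds or opposite to each other (values below), the 250 bases before the start are shown 5′ to 3′ on the gene's strand. Capitals mark matches, on either strand, to a GC box (GGGCGG), a PU.1 core (GAGGAA) or an AP-1 site (TGANTCA). Of 32851 promoters of this length in the table, 32.7% held a GC box, 23.3% a PU.1 core and 6.75% an AP-1 site. Lamb3, with 2 starts in the table of which the first is used, and Itga2 are the epithelial pair shown. Their relation lost its adjusted p under 0.05 in 3 of the 4 alternatives tried.
Lamb3 (chr1:193301744-193301993, plus strand): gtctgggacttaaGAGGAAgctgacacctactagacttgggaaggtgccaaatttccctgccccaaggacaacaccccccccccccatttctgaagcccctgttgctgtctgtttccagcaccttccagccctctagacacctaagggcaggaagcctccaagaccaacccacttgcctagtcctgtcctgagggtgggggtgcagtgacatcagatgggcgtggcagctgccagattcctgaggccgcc
Itga2 (chr13:114932101-114932350, minus strand): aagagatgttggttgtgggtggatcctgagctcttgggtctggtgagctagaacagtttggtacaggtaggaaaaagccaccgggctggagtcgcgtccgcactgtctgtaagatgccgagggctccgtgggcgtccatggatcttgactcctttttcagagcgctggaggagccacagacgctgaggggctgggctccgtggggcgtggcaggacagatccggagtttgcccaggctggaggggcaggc
The window of Lamb3 held 1 PU.1 core, at 237 bases before the start, and that of Itga2 held none of the 3 motifs.

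Among the endothelial members, the collagen receptor subunit Itga1 (chr13:114953096-115101964) had a ratio of the highest to the lowest wound of 1.63. Itga1 was at 69.6, 78.3, 62.4 and 91.04 CPM in the CM0 wounds and at 76.8, 59.4, 65.7 and 81.3 CPM in the CM1 wounds. Itga1 had 78.5, 58.1, 63.03, 59.9 and 63.8 CPM in CMA wounds and 66.6, 57.6, 75.6, 68.6 and 64.8 CPM in CMC wounds. Itga1 in the 6 Ctrl wounds lay between 55.7 and 77.9 CPM, with a median of 72.99 CPM. Itga1 was highest in CM0 4 and lowest in Ctrl 3. Lama4 (chr10:38965515-39110188), a chain of vessel basement membranes that mesenchymal cells also make, had a ratio of 2.16. Lama4 was at 393, 268, 336 and 313 CPM in the CM0 wounds and at 276, 312, 353 and 434 CPM in the CM1 wounds. Lama4 had 281, 226, 273, 458 and 229.6 CPM in CMA wounds and 438, 415, 270.3, 361 and 299 CPM in CMC wounds. Lama4 in the 6 Ctrl wounds lay between 212 and 384 CPM, with a median of 264 CPM. Lama4 was highest in CMA 4, CMC 1 and CM1 4 and lowest in Ctrl 3, and each medium overlapped Ctrl. Itgb3, which pairs with Itgav on endothelial and other cells and with Itga2b on platelets, ran from 30.2 CPM in CMA 5 to 92.0 CPM in CMC 1. Itga5 ran from 89.4 CPM in Ctrl 4 to 205 CPM in CM1 4, and Itga9, known for its part in lymphatic valves, from 33.1 to 60.8 CPM.

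Lama5 (chr2:180176373-180225859) makes laminin chains of vessels and also of epidermis and hair follicles. Lama5 was at 129, 189, 121 and 157 CPM in the CM0 wounds and at 149, 144, 126 and 127 CPM in the CM1 wounds. Lama5 had 144, 184, 148, 103 and 163 CPM in CMA wounds and 101, 117, 129, 137 and 170.2 CPM in CMC wounds. Lama5 in the 6 Ctrl wounds lay between 132 and 278 CPM, with a median of 156 CPM. Ctrl 3, the wound richest in hair follicle markers, stood highest at 278 CPM, and CMC 1 and CMA 4 stood lowest at 101 and 103 CPM. In CMC wounds, 3 of 5 values lay below every Ctrl wound. So did the CM0 wounds at 129 and 121 CPM, the CM1 wounds at 126 and 127 CPM and the CMA wound at 103 CPM. The correlation of Lama5 with endothelial markers was r = -0.35 (permutation, adjusted p = 0.339), so its class name rests on textbook knowledge and not on these wounds.

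Windows of the same length are shown for Itga5 from this class, for Lamb1 and Itgb1, which followed the same fibroblast markers as Itga5, and for Lama5, which varied opposite to Lama4.
Itga5 (chr15:103366792-103367041, minus strand): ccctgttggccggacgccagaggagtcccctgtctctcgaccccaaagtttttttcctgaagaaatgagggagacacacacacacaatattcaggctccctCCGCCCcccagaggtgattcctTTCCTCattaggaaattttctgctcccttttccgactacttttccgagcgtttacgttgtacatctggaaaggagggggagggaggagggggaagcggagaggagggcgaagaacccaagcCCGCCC
Lamb1 (chr12:31265043-31265292, plus strand): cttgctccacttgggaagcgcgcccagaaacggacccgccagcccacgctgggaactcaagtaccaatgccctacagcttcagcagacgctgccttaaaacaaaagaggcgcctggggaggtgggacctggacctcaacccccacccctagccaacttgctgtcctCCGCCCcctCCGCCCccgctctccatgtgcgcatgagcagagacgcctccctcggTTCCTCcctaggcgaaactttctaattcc
Itgb1 (chr8:128685404-128685653, plus strand): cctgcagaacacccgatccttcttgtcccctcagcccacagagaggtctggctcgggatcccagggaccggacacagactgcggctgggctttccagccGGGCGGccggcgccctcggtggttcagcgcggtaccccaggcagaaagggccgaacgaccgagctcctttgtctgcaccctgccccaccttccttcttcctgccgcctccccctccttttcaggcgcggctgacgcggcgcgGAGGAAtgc
Lama5 (chr2:180225860-180226109, minus strand): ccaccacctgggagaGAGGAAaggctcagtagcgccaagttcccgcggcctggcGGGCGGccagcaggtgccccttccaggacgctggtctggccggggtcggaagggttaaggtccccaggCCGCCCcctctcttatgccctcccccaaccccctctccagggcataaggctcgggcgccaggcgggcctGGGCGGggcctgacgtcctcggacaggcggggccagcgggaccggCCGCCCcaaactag
Itga5 and Lamb1 each held 2 GC boxes and 1 PU.1 core, Itgb1 held 1 of each and Lama5 held 4 GC boxes and 1 PU.1 core. None of the 4 held the AP-1 site.

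Leukocyte members were led by Itgb2 (chr10:77530252-77565708), the shared beta subunit. Itgb2 was at 190.5, 147, 130.5 and 155 CPM in the CM0 wounds and at 141, 215, 149 and 164 CPM in the CM1 wounds. Itgb2 had 154, 107, 121, 158 and 227 CPM in CMA wounds and 220.4, 198, 194, 114 and 173 CPM in CMC wounds. Itgb2 in the 6 Ctrl wounds lay between 109 and 212 CPM, with a median of 176 CPM. Itgb2 was highest in CMA 5 and lowest in CMA 2, and the groups overlapped. Itgam was at 26.4, 16.96, 16.4 and 23.4 CPM in the CM0 wounds and at 21.4, 26.6, 28.01 and 21.2 CPM in the CM1 wounds. Itgam had 18.4, 10.5, 19.5, 29.8 and 21.2 CPM in CMA wounds and 39.4, 30.2, 23.9, 15.3 and 14.9 CPM in CMC wounds. Itgam in the 6 Ctrl wounds lay between 10.6 and 41.03 CPM, with a median of 22.3 CPM. Itgam, the alpha subunit of the complement receptor of macrophages and neutrophils, was highest in Ctrl 1 and CMC 1 and lowest in CMA 2 and Ctrl 3. Itgam shares 68.7% of its exon bases with Gm49368, a gene on the same strand, which took 9 counts in all against 5233 for Itgam. Whether reads over the shared bases were counted to Itgam was not tested, so its level may be too low. Itgal, the alpha subunit of the main lymphocyte and neutrophil adhesion receptor, ran from 8.28 CPM in CM0 2 to 23.6 CPM in CM0 4. Itgax, known from dendritic cells and some macrophages, ran from 32.3 CPM in Ctrl 3 to 95.6 CPM in CMC 3.
Itgam (chr7:128062390-128062639, plus strand): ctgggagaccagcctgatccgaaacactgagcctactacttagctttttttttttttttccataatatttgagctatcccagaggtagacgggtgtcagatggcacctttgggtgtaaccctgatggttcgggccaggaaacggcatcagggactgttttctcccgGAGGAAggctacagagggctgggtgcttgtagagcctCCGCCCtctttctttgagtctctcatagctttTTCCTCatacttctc
This window of Itgam, the leukocyte member that varied with Itgb2, held 1 GC box and 2 PU.1 cores.

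Itgad was at 21.3, 36.95, 18.7 and 43.6 CPM in the CM0 wounds and at 37.6, 15.9, 30.1 and 12.3 CPM in the CM1 wounds. Itgad had 36.4, 66.8, 19.8, 37.9 and 58.1 CPM in CMA wounds and 32.1, 46.9, 37.7, 38.3 and 69.96 CPM in CMC wounds. Itgad in the 6 Ctrl wounds lay between 22.2 and 70.9 CPM, with a median of 36.1 CPM. Itgad, an alpha subunit known from macrophages of the spleen, was lowest in CM1 4 and CM1 2 and highest in Ctrl 2 and CMC 5. It overlaps Cox6a2, a gene of striated muscle with 5633 counts, on the opposite strand over 70 exon bases, and the library kit does not mark strand. The correlation of Itgad with skeletal muscle markers was r = 0.41 (rho = 0.47, permutation p = 0.0469, adjusted p = 0.287; r = 0.50 without CM0 2 and Ctrl 4), and the part of these reads in Itgad was not tested. Itga4, which binds Vcam1 and fibronectin, lay between 38.4 and 67.3 CPM. Itgb7 lay between 13.8 and 39.3 CPM and its partner Itgae, which holds lymphocytes to epithelium, between 2.80 and 14.04 CPM.

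The shared and other members covered the common chains and a set of receptors with narrower homes. Itgb1 ran from 398 CPM in Ctrl 3 to 617 CPM in CM1 4, Lamb1 from 271 CPM in CMA 2 to 647 CPM in CM1 4 and Lamc1 from 480.2 CPM in Ctrl 3 to 869.5 CPM in CMA 4. Itgav, the alpha subunit of vitronectin receptors, had the narrowest range of the tested members, from 167 CPM in Ctrl 3 to 234 CPM in CM1 4. Lama2, the chain of muscle and nerve basement membranes, ran from 206 CPM in CM1 1 to 369 CPM in CMC 2, and Lamb2, known from the synapses of muscle and from kidney, from 173 CPM in Ctrl 5 to 316 CPM in CMC 2. Lamc3 ran from 6.24 CPM in Ctrl 6 to 29.15 CPM in Ctrl 3. Itgb8, which with Itgav also activates latent TGF-beta, had 8.34 CPM in Ctrl 6 and 21.2 CPM in Ctrl 3 as its ends. Itga11 ran from 64.4 CPM in Ctrl 4 to 132.5 CPM in CM0 3, Itga8, known from kidney development, from 4.59 CPM in CM1 4 to 14.5 CPM in CMC 3 and the platelet subunit Itga2b from 6.40 CPM in CMC 3 to 15.15 CPM in CMA 4.

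**Figure D3:**
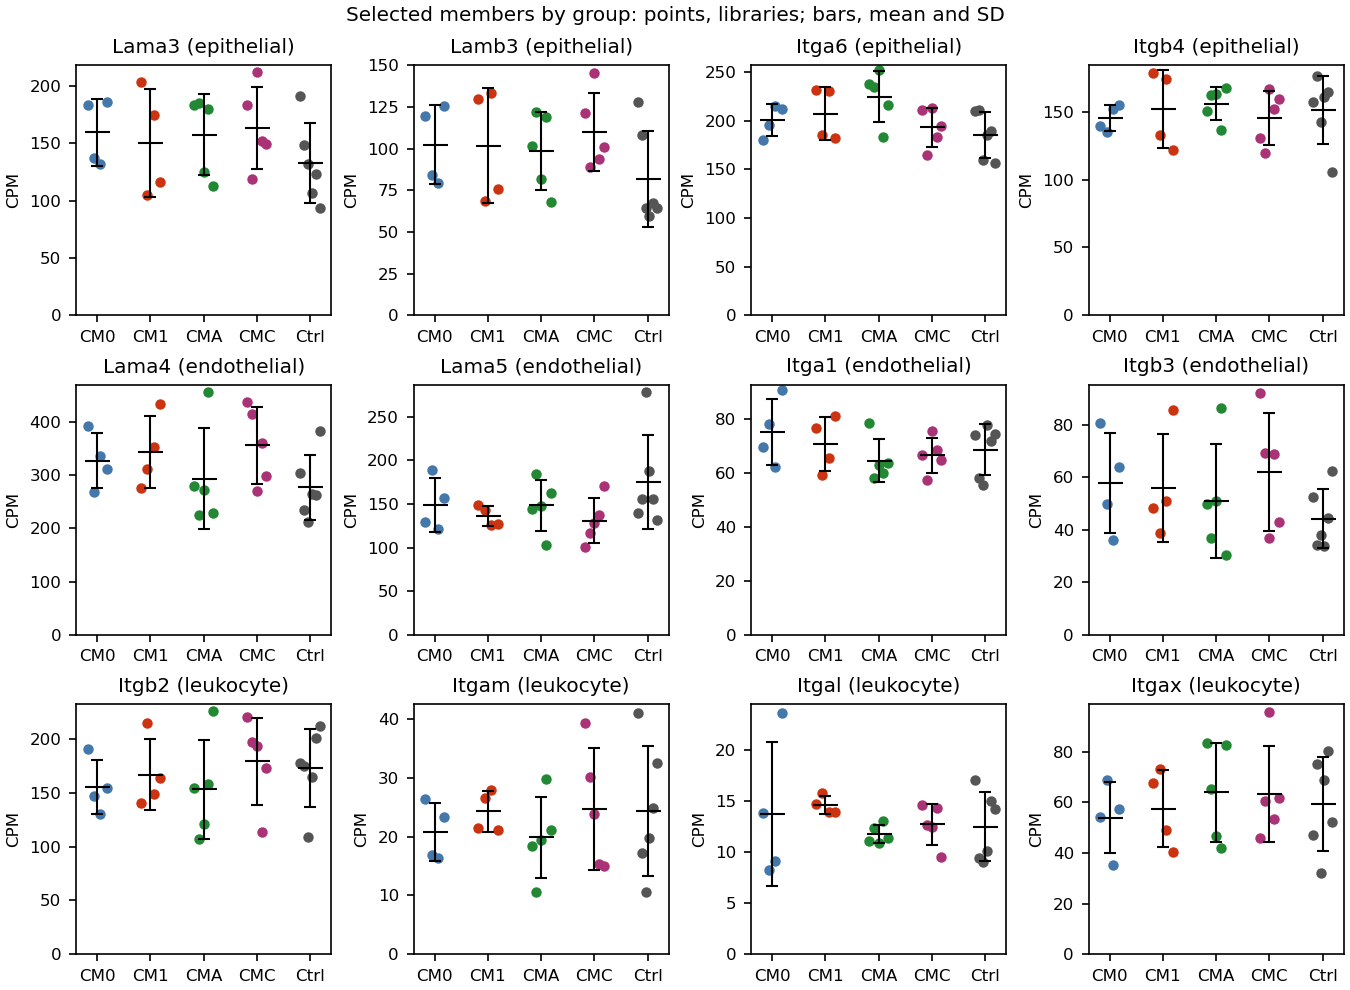
CPM of 12 epithelial (top), endothelial (middle) and leukocyte (bottom) members in CM0, CM1, CMA, CMC and Ctrl wounds, 1 point per wound with the mean and SD. Every medium overlaps Ctrl for each gene, and Lama5 in Ctrl 3 stands at 278 CPM.

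The comparisons of the 4 media with control bandages asked whether any medium altered these genes. None of the 37 tested members passed an adjusted p of 0.05 in edgeR's quasi-likelihood test for CM0, CM1, CMA or CMC against Ctrl, or for the mean of the 4 media. The share of all 18978 genes that passed was 0% in each. At an unadjusted p under 0.05 there were 2 members for CM0 (4.92% of all genes), 2 for CM1 (7.04%), 1 for CMA (6.61%), 4 for CMC (8.55%) and 2 for the mean of the media (9.42%). Limma's test with voom quality weights called no gene. DESeq2 called none of the members and, of the 38663 genes to which it gave a p, 0.00259% with CM0, with CM1, for the mean of the media and in the joint test, 0.0103% with CMC and 0% elsewhere. No member lay wholly above or wholly below Ctrl in any medium, where between 0.148% (CMA, above) and 0.648% (CM1, below) of all genes did so.

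For the mean of the 4 media over Ctrl, Lamb3 had a log2 fold change of 0.33 (95% interval -0.05 to 0.71, edgeR adjusted p = 0.581), and Itgb4 had -0.01 (-0.21 to 0.18, adjusted p = 0.97). The smallest p belonged to Itgb5, at 0.14 (0.02 to 0.27, adjusted p = 0.478), Lama5, at -0.31 (-0.59 to -0.03, adjusted p = 0.487), and Itga6, at 0.15 (-0.01 to 0.32, adjusted p = 0.548). Without Ctrl 3 the value of Lama5 was -0.14, and leaving out any 1 wound kept it between -0.39 and -0.14. Without Ctrl 1 that of Lamb3 was 0.50, and leaving out any 1 wound kept it between 0.25 and 0.50. The 95% intervals lay within 2-fold either way for 36 of 37 members.

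**Figure D4:**
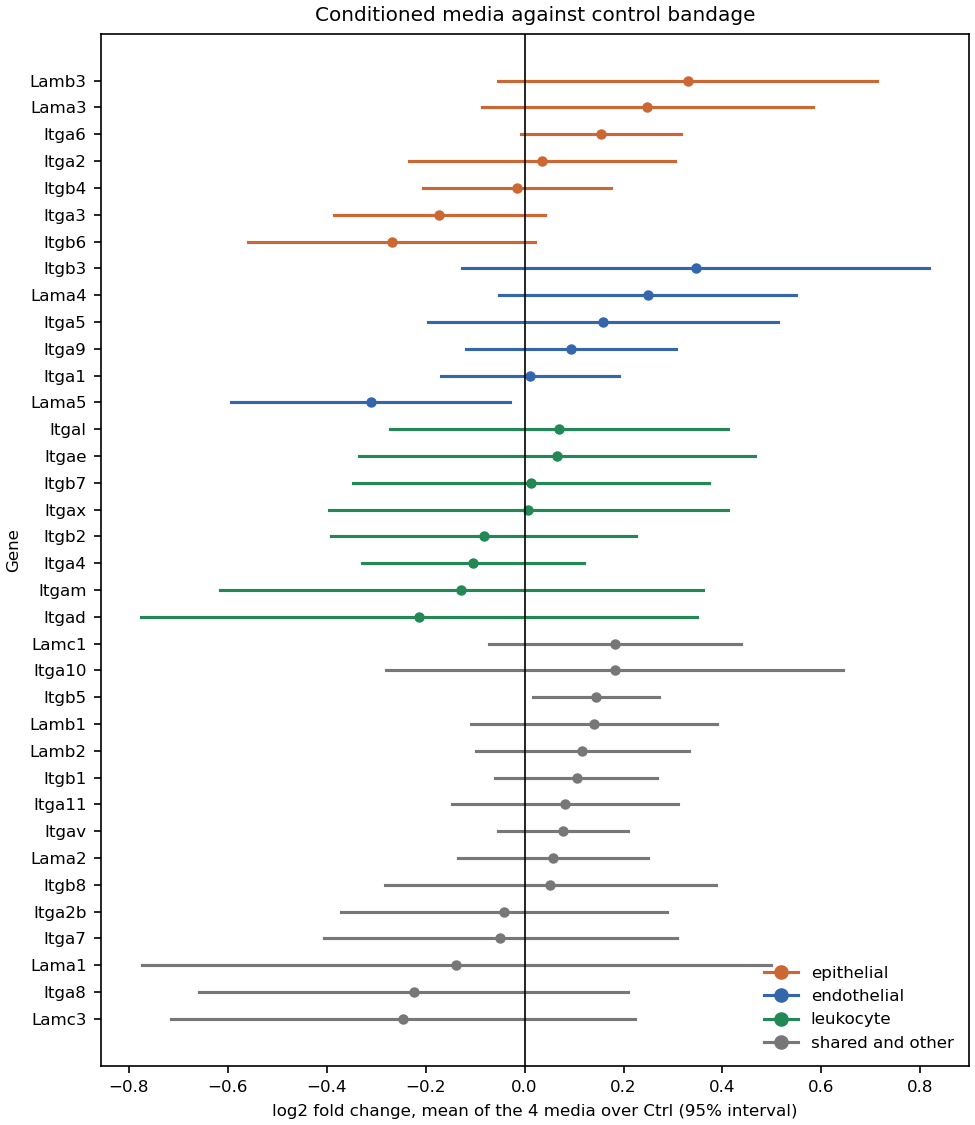
Log2 fold change of 36 tested members, mean of the 4 media over Ctrl, with 95% intervals from edgeR, grouped by class. The intervals of Lama5 and Itgb5 stand clear of 0, and no member passed an adjusted p of 0.05.

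By class, 5 of 8 epithelial members had a fold change above 0 for the mean of the media, with a median of 0.10. For the endothelial members it was 5 of 6 with a median of 0.13, and for the leukocyte members 4 of 8 with a median of -0.04. Leaving out 1 wound gave medians of 0.04 to 0.14, 0.06 to 0.20 and -0.157 to 0.016, the last turning without Ctrl 1 and without Ctrl 5. Of all genes 47.1% had a fold change above 0, and their median was -0.01. In the single comparisons a fold change above 0 was held by 21 of 37 members with CM0 (47.4% of all genes), 21 with CM1 (48.7%), 20 with CMA (46.7%) and 25 with CMC (48.4%). The keratinocyte marker list had values above 0 for 12 of 12 genes, with a median of 0.35, and the fibroblast list for 9 of 9, with a median of 0.19. The endothelial list had values above 0 for 10 of 12 genes, with a median of 0.04, and the leukocyte list for 5 of 12, with a median of -0.03. The hair follicle list had values below 0 for 7 of 7 genes, with a median of -3.86, and the skeletal muscle list for 8 of 8, with a median of -0.59. The Ctrl wounds were uneven in both lists. Their mean hair follicle marker level was 8.71 in Ctrl 3, 5.53 in Ctrl 4 and between -0.63 and 1.49 in the others. Their mean skeletal muscle marker level was 10.7 in Ctrl 4, 10.2 in Ctrl 2 and between 8.80 and 9.33 in the others. None of these markers was called by edgeR, and their part in the members' values was not tested.

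With CM0 over Ctrl the smallest p belonged to Itgb5 (0.23, interval 0.05 to 0.40, edgeR adjusted p = 0.946), Itga11 (0.31, 0.01 to 0.62, adjusted p = 0.946) and the widely used beta chain Lamb1 (0.27, -0.07 to 0.60, adjusted p = 0.946). Itgb5 was at 264, 245, 298 and 315 CPM in the CM0 wounds and at 239.9, 278, 279.5 and 285 CPM in the CM1 wounds. Itgb5 had 295, 231, 258, 241 and 243 CPM in CMA wounds and 266, 256, 273, 248 and 240.2 CPM in CMC wounds. Itgb5 in the 6 Ctrl wounds lay between 219.5 and 277 CPM, with a median of 236 CPM. Itgb5 was highest in CM0 4 and CM0 3 and lowest in Ctrl 4, and the groups overlapped. Without CM0 3 the value of Itga11 was 0.20. Lamb3 had 0.32 (-0.19 to 0.83), which was 0.49 without Ctrl 1 and 0.21 without CM0 4, and Itgb4 had -0.06 (-0.32 to 0.20). The class medians were 0.09 for epithelial, 0.17 for endothelial and -0.10 for leukocyte members, and leaving out 1 wound gave 0.04 to 0.15, 0.05 to 0.25 and -0.21 to -0.02.

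With CM1 over Ctrl the smallest p belonged to Itgb6 (-0.51, interval -0.92 to -0.10, edgeR adjusted p = 0.695), Itgb5 (0.17, 0.00 to 0.35, adjusted p = 0.702) and Itgad (-0.74, -1.54 to 0.06, adjusted p = 0.71). Lamb3 had 0.31 (-0.20 to 0.82) and Itgb4 0.01 (-0.25 to 0.27). The value of Lamb3 was 0.48 without Ctrl 1, 0.16 without CM1 1, 0.155 without CM1 3 and -0.013 without Ctrl 3, Ctrl 4 and CM1 3. The class medians were 0.13, 0.17 and -0.05 for epithelial, endothelial and leukocyte members. Leaving out 1 wound gave -0.036 to 0.215, 0.02 to 0.25 and -0.172 to 0.077, and the sign turned without CM1 1 for the epithelial and without CM1 4 for the leukocyte median. In the same wounds the neutrophil marker list had 8 of 8 genes above 0, with a median of 1.19 and none called.

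With CMA over Ctrl the smallest p belonged to Itga6 (0.28, interval 0.07 to 0.48, edgeR adjusted p = 0.725), Itgae (0.36, -0.15 to 0.86, adjusted p = 0.799) and Lama5 (-0.24, -0.61 to 0.13, adjusted p = 0.819). The value of Itgae was 0.21 without CMA 2 and 0.225 without Ctrl 6. That of Lama5 was -0.13 without CMA 4, -0.06 without Ctrl 3 and 0.021 without Ctrl 3, Ctrl 4 and CM1 3. Lamb3 had 0.26 (-0.22 to 0.75), which was 0.43 without Ctrl 1 and 0.175 without CMA 2, and Itgb4 had 0.05 (-0.20 to 0.29). The class medians were 0.15, 0.00 and -0.11 for epithelial, endothelial and leukocyte members. Over the keratinocyte, endothelial and leukocyte marker lists the medians were 0.62, -0.22 and -0.13, with none of these markers called. Leaving out 1 wound gave class medians of 0.06 to 0.19, -0.108 to 0.079 and -0.197 to 0.011. The sign of the endothelial median turned in 12 of these 24 fits, and that of the leukocyte median turned without Ctrl 1.

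With CMC over Ctrl the smallest p belonged to Itga3 (-0.34, interval -0.62 to -0.06, edgeR adjusted p = 0.548), Lama5 (-0.42, -0.79 to -0.05, adjusted p = 0.567) and Itga10, a collagen receptor known from cartilage (0.65, 0.07 to 1.22, adjusted p = 0.567). Itga10 was at 4.39, 4.95, 3.01 and 3.93 CPM in the CM0 wounds and at 3.87, 3.12, 4.57 and 5.71 CPM in the CM1 wounds. Itga10 had 6.51, 5.57, 6.87, 5.05 and 3.19 CPM in CMA wounds and 6.17, 7.33, 2.56, 11.4 and 7.60 CPM in CMC wounds. Itga10 in the 6 Ctrl wounds lay between 2.22 and 6.30 CPM, with a median of 4.52 CPM. Itga10 was low in all groups and highest in CMC 4, without which its value was 0.41, and it shares 33.5% of its exon bases with Gm42957. Without Ctrl 3 the value of Lama5 was -0.24, as was that of Itga3. Lamb3 had 0.43 (-0.06 to 0.91) and Itgb4 -0.05 (-0.30 to 0.19). Leaving out any 1 wound kept Lamb3 between 0.305 and 0.596. The class medians were 0.07, 0.16 and 0.04, and leaving out 1 wound gave 0.004 to 0.118, 0.09 to 0.24 and -0.059 to 0.133, the last turning without Ctrl 3 and without Ctrl 4. The single comparisons and the mean of the media share the 6 Ctrl wounds, so they are not separate evidence.

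Between the media, edgeR again called none of the members and none of all genes (0% in each of the 6 comparisons) at an adjusted p of 0.05. At an unadjusted p under 0.05 there were 0 members for CM1 over CM0 (2.22% of all genes), 1 for CMA over CM0 (3.14%), 2 for CMC over CM0 (3.72%), 1 for CM1 over CMA (4%), 2 for CM1 over CMC (2.71%) and 2 for CMA over CMC (6.16%). The smallest p belonged to Itgb6 for CM1 over CM0 (-0.38, adjusted p = 1), to Itga11 for CMA over CM0 (-0.38, adjusted p = 1) and to Itga10 for CMC over CM0 (0.78, adjusted p = 0.998). It belonged to Itgad for CM1 over CMA (-0.87, adjusted p = 0.995) and for CM1 over CMC (-0.91, adjusted p = 1), and to Itga3 for CMA over CMC (0.32, adjusted p = 0.795). Without CM0 2 the value of Itgb6 was -0.23, and without CMA 3 that of Itga3 was 0.21. In the joint test for any difference among the 5 groups, 0 members and 0% of all genes were called, and 0 members and 4.65% of all genes had an unadjusted p under 0.05. The smallest was that of Itga10 (edgeR adjusted p = 0.929).

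To describe the spread between single wounds, each tested member was set against marker levels of cell types over the 24 wounds. Log2 CPM of a member was correlated with the mean log2 CPM of a marker list, which holds no member. The p comes from a two-sided permutation test with 100000 resamples and is adjusted over all 18978 genes within a list. In all 552 such relations of members were computed, with 12 marker lists and with the levels of Lamb3, Lama4 and Itgb2. Member and marker values come from the same libraries. Some lists share genes. The leukocyte list holds S100a8 and S100a9 of the neutrophil list, and Csf1r, Cd68, Adgre1 and Lyz2 of the macrophage list. Relations with these lists are therefore not separate evidence.

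With keratinocyte markers, 3 of 8 epithelial members correlated positively at an adjusted p under 0.05, where 5.91% of all genes did. Itga6 had r = 0.67 (adjusted p = 0.00875) and rho = 0.57 (adjusted p = 0.06), with r = 0.53 without CMA 3 and Ctrl 6, the 2 wounds farthest from the median of the marker level, where the call ended. Lama3 had r = 0.63 (adjusted p = 0.0206) and rho = 0.59 (adjusted p = 0.0463), with r = 0.69 without them, and its call ended with each group centred on its own mean and without Ctrl 3, Ctrl 4 and CM1 3. Lamb3 had r = 0.54 (adjusted p = 0.0716), Itgb4 0.41 (0.235), Itga3 0.32 (0.43), Itga2 0.28 (0.521) and Itgb6 0.07 (0.914). Itga4, a leukocyte member, was the only member with a negative call (r = -0.60, adjusted p = 0.0309; 1.87% of all genes), with r = -0.56 without the 2 wounds, where the call ended.

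Among the epidermal laminin chains themselves, Lama3 followed Lamb3 with r = 0.93 (permutation p = 1e-05, the smallest that these permutations can give, adjusted p = 0.0316; rho = 0.90, adjusted p = 0.0316), and r was 0.95 without Ctrl 3 and Ctrl 4. It kept an adjusted p under 0.05 in each of the 4 alternatives tried. The collagen receptor Itga2 (r = 0.73, adjusted p = 0.0395, rho = 0.71) was also called, where 0.158% of all genes were. Without Ctrl 3 and Ctrl 4 the r of Itga2 was 0.69 and it did not stay under 0.05. Its call also ended without Ctrl 3, Ctrl 4 and CM1 3 and with each group centred. Itga6 had r = 0.49 (adjusted p = 0.249), Itgb4 0.35 (0.464), Itga3 -0.10 (0.891) and Itgb6 -0.19 (0.752).

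With endothelial markers, 2 of 6 endothelial members correlated positively at an adjusted p under 0.05, where 2.44% of all genes did. Itga1 had r = 0.81 (permutation p = 1e-05, adjusted p = 0.00306) and rho = 0.80 (adjusted p = 0.00404). Its r was 0.76 without CM1 4 and Ctrl 3, the 2 farthest wounds, and 0.83 with each group centred, and it stayed called in all 5 alternatives. Itga5 had r = 0.66 (adjusted p = 0.0262) and rho = 0.62 (adjusted p = 0.0668), but its r was 0.54 and its call ended without those 2 wounds. Itga9 had r = 0.55 (adjusted p = 0.0885), Itgb3 0.40 (0.257), Lama4 0.39 (0.27) and Lama5 -0.35 (0.339). Members outside the class were called as well. Itgb1 had 0.70, Lamb1 0.63 and Itgav 0.63, with 0.56, 0.52 and 0.43 without the 2 wounds. Lamc3 and Itgb6 had -0.68 and -0.65, with -0.50 and -0.52 without them (1.12% of all genes were called negative). The calls of these 5 members ended without the 2 wounds and with each group centred.

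Lama4, Itgb3 and Itga5 followed fibroblast markers such as Col1a1 and Pdgfra. Of 37 members 7, or 18.9%, were called positive with that list, against 7.08% of all genes. Lamb1 had r = 0.88 and rho = 0.87 (adjusted p = 0.000759 and 0.00123), Itgb1 0.85 and 0.86 (0.000759 and 0.00123), and Lama4 0.82 and 0.86 (0.0012 and 0.00123). Itga5 had r = 0.78 (adjusted p = 0.000759), Lamc1 0.78 (0.0012) and Itgb3 0.74 (0.00191). Without CM1 4 and Ctrl 3 the r of these 6 genes lay between 0.71 and 0.87, and all 6 stayed called in each of the 4 alternatives tried. Itgav had r = 0.68 (adjusted p = 0.00622) and r = 0.53 without them, where its call ended. Negative calls went to 5 members, or 13.5%, against 4% of all genes: Itgae (-0.66), Lama5 (-0.64), Lamc3 (-0.57), Itgb6 (-0.57) and Itgb4 (-0.55). Without CM1 4 and Ctrl 3 these were -0.63, -0.55, -0.33, -0.42 and -0.60, and only the call of Itgae stayed. With each group centred all 5 calls ended. Ctrl 3 held the lowest fibroblast marker level of the 24 wounds and the highest values of Lama5 and Lamc3.

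Set against Lama4 itself, 9 of 36 other members were called positive, or 25.0%, against 8.5% of all genes. Lamc1 had r = 0.93 (rho = 0.93), Itgb3 0.86 (0.83), Lamb1 0.81 (0.83), Itgb1 0.80 (0.81) and Itga5 0.75 (0.75). Without CMA 4 and CMC 1, the 2 farthest wounds, r was 0.91, 0.81, 0.81, 0.84 and 0.72. Negative calls went to 5 members, or 13.9%, against 5.31% of all genes. Lama5 had r = -0.82 (permutation p = 1e-05, adjusted p = 0.00062) and rho = -0.84, with r = -0.76 without the 2 wounds, -0.80 with each group centred, and calls in all 4 alternatives. The log2 ratio of Lama5 to Lama4 per kilobase ran from -2.06 in CMA 4 to 0.47 in Ctrl 3. By group its mean was -1.06 ± 0.50 in CM0, -1.23 ± 0.39 in CM1, -0.87 ± 0.72 in CMA, -1.36 ± 0.53 in CMC and -0.60 ± 0.65 in Ctrl wounds. Itgb4 (r = -0.63, adjusted p = 0.0144) stayed called in all 4 alternatives too, and Itga3 (r = -0.60), Itgae (-0.57) and Itga8 (-0.55) did not.

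**Figure D5:**
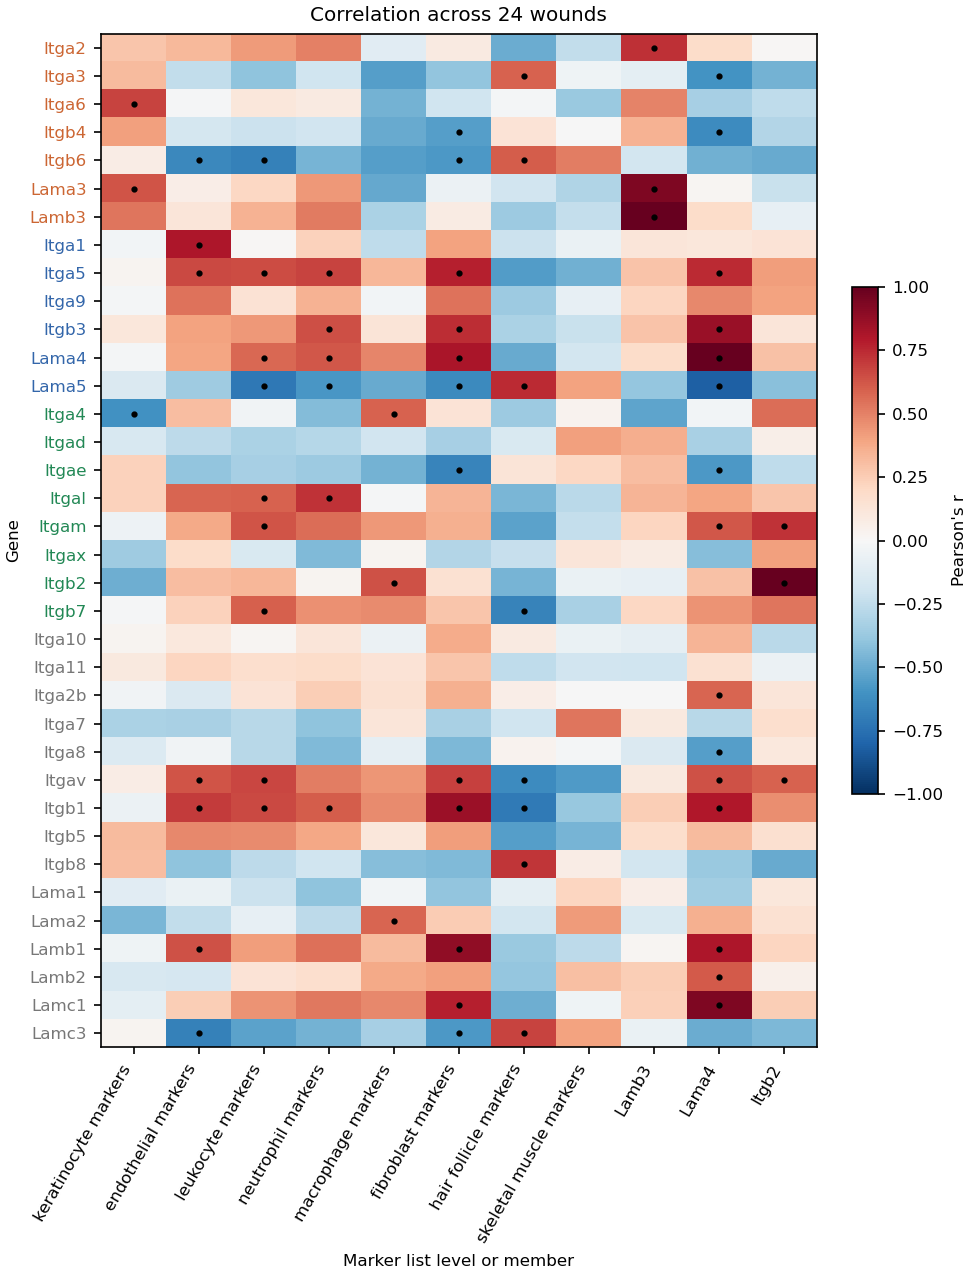
Pearson's r over 24 wounds of 36 tested members (down, coloured by class) with marker list levels and with Lamb3, Lama4 and Itgb2 (across), from -1 to 1, with a dot where the permutation p adjusted over all genes is under 0.05. Itga1 stands at 0.81 with endothelial markers, Lama3 at 0.93 with Lamb3 and Lama4 at 0.82 with fibroblast markers, while Lama5 is at -0.82 with Lama4.

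Hair follicle markers called 5 members positive (13.5%, against 3.68% of all genes). Lama5 had r = 0.74 (adjusted p = 0.00652, rho = 0.57), Itgb8 0.71 (0.00431, rho = 0.74), Lamc3 0.68 (0.0182, rho = 0.50), Itgb6 0.61 (0.0347, rho = 0.35) and Itga3 0.59 (0.0493, rho = 0.46). Without CMA 3 and Ctrl 3, the wounds richest in these markers, r was 0.63, 0.59, 0.51, 0.45 and 0.26 and none stayed called. Itgb1 (-0.70), Itgb7 (-0.67) and Itgav (-0.63) were called negative (2.15% of all genes), with -0.59, -0.57 and -0.47 without those wounds, where their calls ended.

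With leukocyte markers, 3 of 8 tested leukocyte members were called positive, where 5.06% of all genes were. Itgam had r = 0.63 (adjusted p = 0.025) and rho = 0.70 (adjusted p = 0.0188), with r = 0.72 without CM0 2 and Ctrl 4, the 2 farthest wounds. Its call ended without Ctrl 3, Ctrl 4 and CM1 3 (adjusted p = 0.0611). Itgb7 had r = 0.60 (adjusted p = 0.0344) and Itgal 0.59 (0.0373), with 0.41 and 0.46 without the 2 wounds, where both calls ended. Itgb2 had 0.33 (0.32), Itga4 -0.03 (0.943), Itgax -0.16 (0.7), Itgad -0.31 (0.361) and Itgae -0.33 (0.325). Of all 37 members 8 were called positive, and those from other classes included Itgav, Itgb1, Itga5 and Lama4, whose calls ended without the 2 wounds. Lama5 (r = -0.72, adjusted p = 0.00871, and -0.69 without the 2 wounds) and Itgb6 (r = -0.67, and -0.55 without them) were called negative, as were 3.28% of all genes. Lama5 stayed called in all 4 alternatives, and the call of Itgb6 ended without the 2 wounds.

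Neutrophil markers, with 5% of all genes called positive, went with Itgal (r = 0.72, adjusted p = 0.00573, rho = 0.67) and Itgb3 (r = 0.65, adjusted p = 0.0195, rho = 0.71), among 6 members called. Without CM0 2 and Ctrl 4 their r was 0.66 for each and both stayed called, and the call of Itgal ended with each group centred. Macrophage markers, with 5.28% of all genes, went with Itgb2 (r = 0.64, adjusted p = 0.0167, rho = 0.66), Itga4 (r = 0.59, adjusted p = 0.0318, rho = 0.60) and Lama2 (r = 0.59, adjusted p = 0.035, rho = 0.58). Without CMC 2 and Ctrl 6 the r of these 3 was 0.59, 0.54 and 0.42 and none stayed called. With Itgb2 itself, Itgam had r = 0.72 (adjusted p = 0.00524, rho = 0.68) and Itgav 0.59 (adjusted p = 0.0455), where 3.49% of all genes were called. Without CMA 2 and Ctrl 3 these were 0.57 and 0.37 and neither stayed called. Skeletal muscle markers called no member positive, against 2.75% of all genes. The lymphocyte, mast cell and platelet, smooth muscle and pericyte, and Schwann cell lists called no member in either direction.

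Partners of laminins and integrins were read from lists that hold no member. For the mean of the media over Ctrl, edgeR called none of them. Of 5 hemidesmosome genes 4 had a fold change above 0, with a median of 0.05, and the smallest p belonged to the plakin Dst (0.13, adjusted p = 0.714). Of 12 basement membrane genes 8 were above 0, with a median of 0.02, led by the linker protein Nid1 (0.26, adjusted p = 0.486). Of 18 integrin activators and adaptors 12 were above 0, with a median of 0.02, led by Lims2 (0.36, adjusted p = 0.487). Of 14 ligands of integrins 10 were tested and 5 were above 0, led by fibronectin, Fn1 (0.46, adjusted p = 0.535). Of 4 other laminin receptors 3 were above 0, led by Rpsa (0.12, adjusted p = 0.548).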

How the data were processed

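The authors deposited raw counts of reads per gene for each library. Per the submitters' processing notes, bcl2fastq 2.17, FastQC, cutadapt, STAR, featureCounts, DESeq2 and the build GRCm38 were used, and no source states the annotation release. Per the labels' protocols, total RNA was depleted of ribosomal RNA and made into libraries with a kit that does not mark strand. Symbols and exon lengths come from GENCODE M21 on GRCm38. The length of a gene joins the exons of all its annotated transcripts. It can exceed that of the transcripts present, which would lower the level per kilobase and the share of a gene. A single edgeR 4.0.16 quasi-likelihood model (R 4.3.3, filterByExpr defaults, TMM, robust, 1 term per group) was fitted to the 24 libraries, with Benjamini-Hochberg adjustment over 18978 genes, and tested on simulated counts. CPM are counts scaled after TMM. Correlations used log2 CPM with a prior count of 2 (Python 3.11.15, numpy 2.4.6). Alternatives were RLE size factors, no filter, DESeq2 1.42.0, limma 3.58.1 voom with quality weights, the compared groups alone, leaving out each library, and leaving out Ctrl 3, Ctrl 4 and CM1 3, and for correlations also leaving out the 2 wounds farthest from the median, centring each group and a prior count of 0.5. No replicate pair agreed within sampling noise (chi-square per degree of freedom of at least 10.4). The series text counts samples as mice.

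Members and lists were chosen with earlier results of these data known. Fold changes are named for the 3 members of smallest p per comparison with Ctrl, the 1 of smallest p elsewhere, and for Lamb3 and Itgb4. Values of 1 member are not reported here. Correlations with the lists other than keratinocyte, endothelial and leukocyte markers, and with Lamb3, Lama4 and Itgb2, were added after seeing the data, as were alternatives for members outside a list's class. Wounds are numbered in the order of their accessions. Of the members 12 share exon bases with another gene, and whether reads in such bases were counted to them was not tested. Counts of close copies such as Itgb2 and Itgb2l cannot always be told apart. Intervals cover the spread between these wounds. The promoter sequences are from RefSeq.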

Additional observations from a re-analysis of the deposited data

Results flagged for a closer look

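In 9 of 185 sets of 4 to 6 wounds (37 members in 5 groups), 1 wound stood far from the rest of its group by Dixon's criterion, which chance does in about 1 of 20 sets. CMA 4 had 457.5 CPM of Lama4 (226 to 281 in the other CMA wounds) and 869.5 CPM of Lamc1 (498 to 534), and CMA 1 had 78.5 CPM of Itga1 (58.1 to 63.8). Ctrl 3 had 71.9 CPM of Itga3 (46.8 to 54.2 in the other Ctrl wounds), and Ctrl 6 had 519.7 CPM of Lamb1 (326 to 381). CM0 2 had 9.79 CPM of Itgae (7.16 to 7.60 in the other CM0 wounds) and 186.6 CPM of Itgav (219.7 to 222). CM1 1 had 239.9 CPM of Itgb5 (278 to 285 in the other CM1 wounds), and CM1 2 had 39.3 CPM of Itgb7 (19.9 to 22.97).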

How the results depend on the processing

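No member was called in any of the 358 alternative tests. Of the 15 class medians 6 changed sign when 1 wound was left out. No paired analysis was possible because the labels give no replicate numbers. A fit of only the groups compared was not run for the mean of the media or the joint test, which need all groups. Values near 0 changed sign. For Itgb4 with CM1 over Ctrl (0.01) the log2 fold change was -0.00012 with RLE, -0.003 with limma and with the 2 groups alone, and -0.068 without Ctrl 3, Ctrl 4 and CM1 3. For CMA over Ctrl it was -0.009 with limma. Leaving out each wound gave Itgb4 -0.091 to 0.1 (CM1), -0.044 to 0.095 (CMA), -0.143 to 0.006 (CMC) and -0.105 to 0.035 (mean of the media). Without Ctrl 3, Ctrl 4 and CM1 3, Lama5 with CMA over Ctrl was 0.021 (-0.24 with all wounds) and Lamb3 with CM1 over Ctrl was -0.013 (0.31 with all wounds). The epithelial members called with keratinocyte markers were 3 in the main test and 1 with each group centred. The endothelial members called with endothelial markers were 2 and became 1, Itga1, with each group centred or without the 2 farthest wounds. The leukocyte members called with leukocyte markers were 3 and became 1, Itgam, under either of these, and 0 without Ctrl 3, Ctrl 4 and CM1 3. The cause was not tested. Among alternative values of single correlations, 122 lost the call of the main test. The other 236 kept their side of the threshold, but these include members not called in the main test. They are thus not a count of calls that held. Itgb2l was too low to test at this depth.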

Other observations

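Itga7, a laminin receptor of skeletal muscle, had r = 0.54 with skeletal muscle markers (permutation p = 0.00662, adjusted p = 0.107, n = 24), rho = 0.61 (adjusted p = 0.0533) and r = 0.61 without CM0 2 and Ctrl 4. It ran from 60.6 CPM in CM1 4 to 152 CPM in CMA 5. Lama1, an alpha chain best known from embryonic basement membranes, ran from 12.1 CPM in Ctrl 3 to 59.1 CPM in CMA 2, and its r with each of the hair follicle, skeletal muscle and smooth muscle lists was -0.10, 0.22 and 0.15, none called.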
